A study of Mus musculus with 12 samples.

Results

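The expression of 10 integrin subunit genes was examined in preosteoclasts, the mononuclear precursors that fuse into bone-resorbing osteoclasts. They were taken by their symbols: Itgav, Itgb3 and Itgb5, which encode the αv chain and its partners β3 and β5; Itgb2, Itgam, Itgal and Itgax, which encode β2 and its α chains αM, αL and αX; and Itgb1, Itga4 and Itgb7, which encode β1, α4 and β7. Each had a single row among the 57010 genes counted, and all 10 were among the 15425 genes that passed the filter on low counts. Bulk RNA-seq of polyA RNA covered 12 libraries, with 2 for each of 6 conditions. Female mice of the genotypes LSD1WT and LSD1cKO gave bone marrow, which was cultured in the presence of M-CSF and RANKL, and RNA was taken after 2 days. Each genotype was represented by mandible marrow of mice that had carried a ligature for 7 days, by femur marrow of such ligated mice, and by femur marrow of mice without a ligature. The study's methods name floxed LSD1 mice and LysM-Cre, a Cre driven by the myeloid Lyz2 promoter, and call the control genotype Lsd1LysM-WT. The mice were 2 months old by the labels, whereas the methods give that age for ligature placement and an older one for marrow collection. The labels name 9 mice, 5 LSD1WT and 4 LSD1cKO, and for 3 of them both a mandible and a femur culture were sequenced. Mandible LSD1WT replicate 3 was called mandible in its title and femur in its library name, and was taken as mandible.

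Integrins are receptors made of an α and a β chain that bind matrix proteins and proteins on other cells, and they signal once talin and kindlin have bound the β tail. In the osteoclast lineage αvβ3 is the receptor for osteopontin and other RGD proteins, and it organises the actin ring under which bone is resorbed. Precursors carry more αvβ5, and αvβ3 takes its place as they differentiate. The β2 integrins are restricted to leukocytes: αMβ2 is a classical marker of monocytes and macrophages, αLβ2 binds ICAM proteins, and αXβ2 is high on dendritic cells. α4β1 binds VCAM1, and α4β7 binds MADCAM1.

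The starts of 3 of the genes are shown because PU.1 and AP-1 are the transcription factors best known at myeloid and osteoclast genes. RefSeq entries existed for 7 of the 10 genes. The runs hold the 250 bases upstream of the annotated start on GRCm38.p6, all on the plus strand. In capitals are the PU.1 core GAGGAA on either strand (TTCCTC as its reverse complement) and the AP-1 site TGAGTCA on either strand (TGACTCA), which do not overlap each other.
Itgav, chr2:83724147-83724396: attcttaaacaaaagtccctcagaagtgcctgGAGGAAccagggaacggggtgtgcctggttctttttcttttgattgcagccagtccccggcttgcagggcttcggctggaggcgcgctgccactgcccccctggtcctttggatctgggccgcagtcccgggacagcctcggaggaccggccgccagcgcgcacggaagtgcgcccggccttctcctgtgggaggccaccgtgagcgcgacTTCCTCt
Itgam, chr7:128062390-128062639: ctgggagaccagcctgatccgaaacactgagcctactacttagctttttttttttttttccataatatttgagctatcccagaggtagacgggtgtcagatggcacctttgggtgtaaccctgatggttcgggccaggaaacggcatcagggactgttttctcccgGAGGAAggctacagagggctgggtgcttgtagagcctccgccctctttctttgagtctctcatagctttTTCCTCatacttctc
Itgax, chr7:128129300-128129549: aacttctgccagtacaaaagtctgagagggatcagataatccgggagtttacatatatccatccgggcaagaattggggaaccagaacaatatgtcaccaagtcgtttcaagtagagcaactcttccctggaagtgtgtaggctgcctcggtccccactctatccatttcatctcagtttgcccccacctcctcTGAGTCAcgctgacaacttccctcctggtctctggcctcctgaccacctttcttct
Itgav held PU.1 cores whose first bases lay 7 and 218 bases before the start, and Itgam held them at 15 and 84 bases. Itgax held the AP-1 site at 56 bases and no PU.1 core. Among the other windows, Itgb1 held a PU.1 core at 9 bases, Itga4 a RUNX core (TGTGGT or ACCACA) at 60 bases, and Itgb5 and Itgb7 none of the motifs searched, which included the E-box TCACGTG. The PU.1 core stood in 23.3% of all 32851 promoter windows of this length, the RUNX core in 14%, the AP-1 site in 4.46% and the E-box in 3.13%. A match of letters is a description and not evidence of binding.

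Counts per library ranged from 21375805 to 32526751. Kdm1a, the gene for LSD1, was at 15.6 to 24.3 CPM in the 6 LSD1cKO libraries and at 61.2 to 71.3 CPM in the 6 LSD1WT libraries (log2 fold change -1.82, adjusted p = 3.559e-05, edgeR's quasi-likelihood test), with no overlap. CPM here means counts per 1000000 reads after TMM scaling of library size. Both femur LSD1WT replicate 2 libraries, from a ligated and an unligated mouse, stood apart from the other 10. Their Acp5, the gene for the osteoclast enzyme TRAP, was at 8.31 and 26.1 CPM against 2403 to 7677 CPM elsewhere, and their Adgre1, which encodes the macrophage antigen F4/80, was at 1717 and 1342 CPM against 47.6 to 505 CPM. The summed level of 14 osteoclast genes was 1010 to 1028 CPM in that pair, 28256 to 43678 CPM in the other 4 LSD1WT libraries and 13579 to 31755 CPM in LSD1cKO. For 15 macrophage and monocyte genes the sums were 12044 to 14829 CPM, 2206 to 3785 CPM and 1949 to 5173 CPM in the same order. Megakaryocyte genes, mostly Pf4, summed to 438 to 900 CPM in that pair and to 9.71 to 58.8 CPM elsewhere. Neutrophil genes summed to 162 to 418 CPM in that pair, 129 to 175 CPM in the other 4 LSD1WT libraries and 155 to 346 CPM in LSD1cKO. Their part in the integrin values was not tested. B cell and T and NK cell genes summed to at most 18.0 CPM in any library. The unligated femur LSD1cKO replicates also differed, with a biological coefficient of variation of 0.3545. Their osteoclast sums were 31755 CPM in replicate 1 and 13579 CPM in replicate 2. Each of the integrin genes was lower in that replicate 2, by 1.61-fold (Itgb7) to 3.58-fold (Itgb3). Conversely, the mandible LSD1WT pair was nearly identical, with counts 1.54 times as variable as sampling noise and a biological coefficient of variation of 0.0246 against 0.0963 to 0.701 in the other pairs. Its spread need not hold the spread between mice. Results that rest on the femur LSD1WT replicate 2 libraries are given below with and without them.

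Per kilobase of exon, the level order by median over the 12 libraries began with the β chains that several α chains share. Itgb2 stood at 210.3 CPM per kb (range 160.3 to 324.4) and Itgb1 at 149.8 CPM per kb (106.5 to 223.2). Itgav followed at 83.1 CPM per kb and Itgb7 at 64.7, then Itgb3 at 31.3, Itgam at 30.5, Itga4 at 24.8 and Itgb5 at 17.6. Itgal at 11.6 CPM per kb and Itgax at 2.75 CPM per kb were the lowest. The ranges of neighbours in this order overlapped throughout. As a ratio of the highest to the lowest library, Itgb3 varied most, from 1.80 to 66.4 CPM per kb, and Itgb2 least.

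Itgb3 (ENSMUSG00000020689, chromosome 11), the chain of the resorptive receptor αvβ3, was lower in LSD1cKO than in LSD1WT in the mandible. In each femur culture the LSD1cKO libraries were below the LSD1WT library rich in osteoclast transcripts and above the one nearly lacking them. Setting the latter libraries aside would by itself raise the LSD1WT level, because they also held the lowest Itgb3. Mandible LSD1WT had 391 and 392 CPM, against 185 and 189 CPM in LSD1cKO. Ligated femur gave 368 and 13.5 CPM for LSD1WT, against 128 and 88.0 CPM for LSD1cKO. Without ligature, the femur values were 277 and 10.6 CPM for LSD1WT, against 184 and 51.5 CPM for LSD1cKO. The genotypes did not overlap in the mandible, whereas in both femur cultures the LSD1cKO pair lay between a high and a very low LSD1WT library. The LSD1WT femur replicates thus differed 27.2-fold with ligature and 26.0-fold without it.

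Itgb5 (ENSMUSG00000022817, chromosome 16), the alternative partner of αv, was higher in LSD1cKO than in LSD1WT in mandible and than in replicate 1 of femur LSD1WT, and its mean was lower in LSD1cKO in both femur cultures. Mandible LSD1WT had 27.2 and 29.5 CPM, against 52.7 and 63.0 CPM in LSD1cKO. Values in ligated femur were 55.1 and 340 CPM in LSD1WT and 104 and 74.9 CPM in LSD1cKO, and in unligated femur 60.1 and 399 CPM in LSD1WT and 128 and 62.1 CPM in LSD1cKO. Here the LSD1WT replicate 2 libraries were 6.16 and 6.64 times as high as replicate 1, and each LSD1cKO femur pair again lay between them. Across the 12 libraries log2 CPM of Itgb3 and Itgb5 correlated at -0.88, a description in which the femur LSD1WT replicate 2 libraries form the extreme.

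Itgav (ENSMUSG00000027087, chromosome 2), which both receptors share, ran from 114 to 1623 CPM. Its femur LSD1WT replicates differed 10.6-fold with ligature and 2.30-fold without it. Mandible LSD1WT had 1623 and 1601 CPM, against 1085 and 1199 CPM in LSD1cKO. Ligated femur gave 1203 and 114 CPM in LSD1WT and 581 and 428 CPM in LSD1cKO, while unligated femur gave 813 and 353 CPM in LSD1WT and 973 and 442 CPM in LSD1cKO. The mandible LSD1cKO pair was below the LSD1WT pair, and the femur pairs overlapped.

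**Figure D1:**
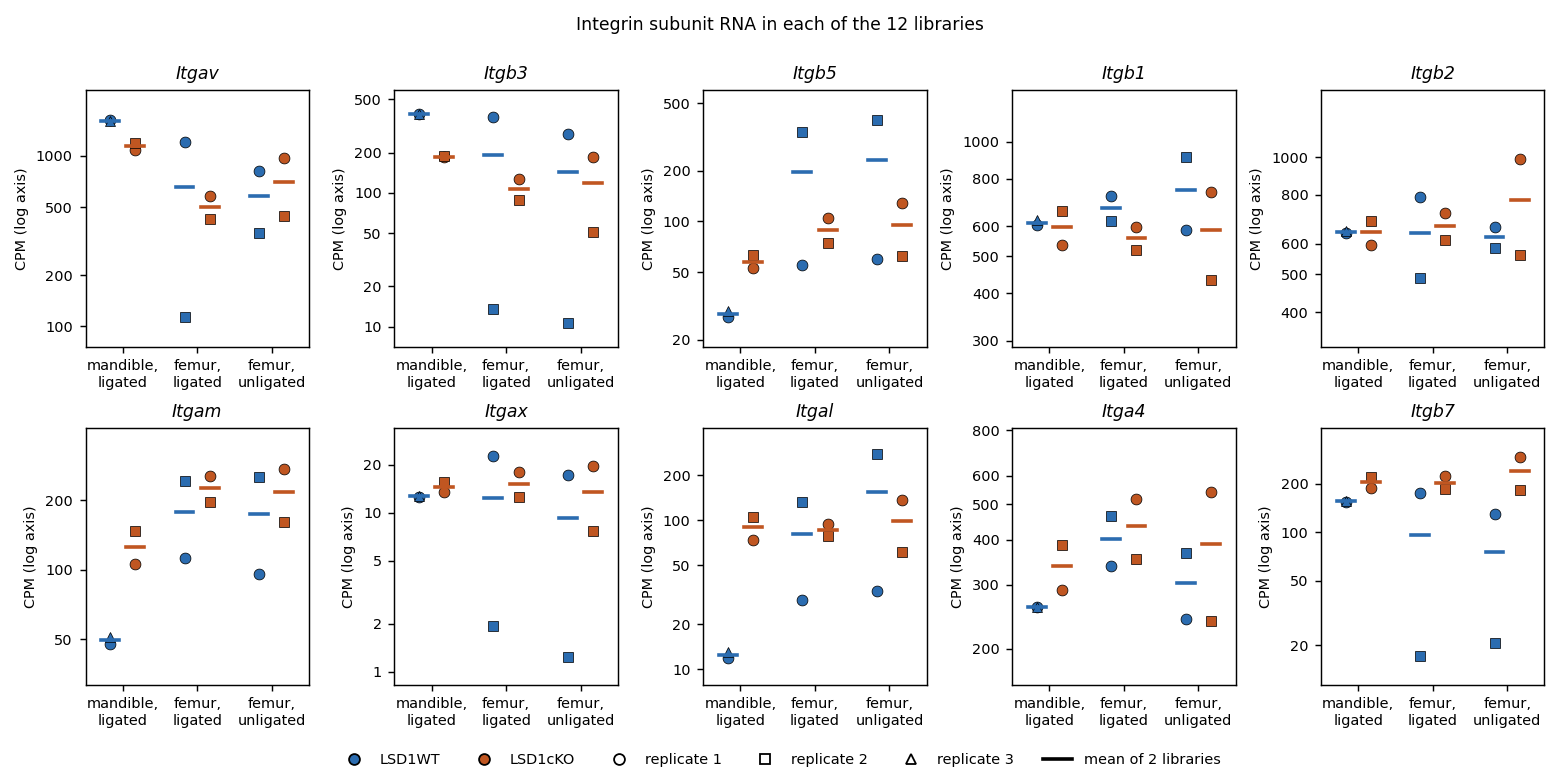
CPM (TMM-scaled counts per 1000000 reads, log axis) of the 10 integrin genes in each of the 12 libraries, by culture on the horizontal axis; blue symbols are LSD1WT, orange symbols LSD1cKO, the symbol shape is the replicate number and the bar is the mean of 2 libraries. The femur LSD1WT replicate 2 squares lie far from replicate 1 for Itgb3 (13.5 and 10.6 CPM), Itgb5 (340 and 399 CPM), Itgax and Itgb7, while Itgb1 and Itgb2 stay within 435 to 990 CPM in every library.

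The balance of the β chains was read as the ratio of Itgb3 to Itgb5 per kb. It was 7.98 and 8.66 in mandible LSD1WT and 2.11 and 1.81 in mandible LSD1cKO. Replicate 1 of femur LSD1WT had ratios of 4.02 with ligature and 2.78 without, and replicate 2 had 0.0240 and 0.0161. All 4 femur LSD1cKO libraries were between 0.499 and 0.868. Thus Itgb5 RNA exceeded Itgb3 RNA per kb in each femur LSD1cKO library. Itgb3 exceeded Itgb5 per kb in each mandible library of both genotypes and in femur LSD1WT replicate 1. The order in femur LSD1cKO depends on the exon lengths used, 5901 bases for Itgb3 and 3553 for Itgb5. Without that division, Itgb3 and Itgb5 were at 128 and 104 CPM and 88.0 and 74.9 CPM with ligature. Without ligature they were at 184 and 128 CPM and 51.5 and 62.1 CPM. In every culture both LSD1cKO libraries had a lower ratio than the LSD1WT libraries other than the femur replicate 2 pair. No test was made on the ratio. In bulk RNA, fewer cells expressing a gene and less RNA per cell cannot be told apart.

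**Figure D2:**
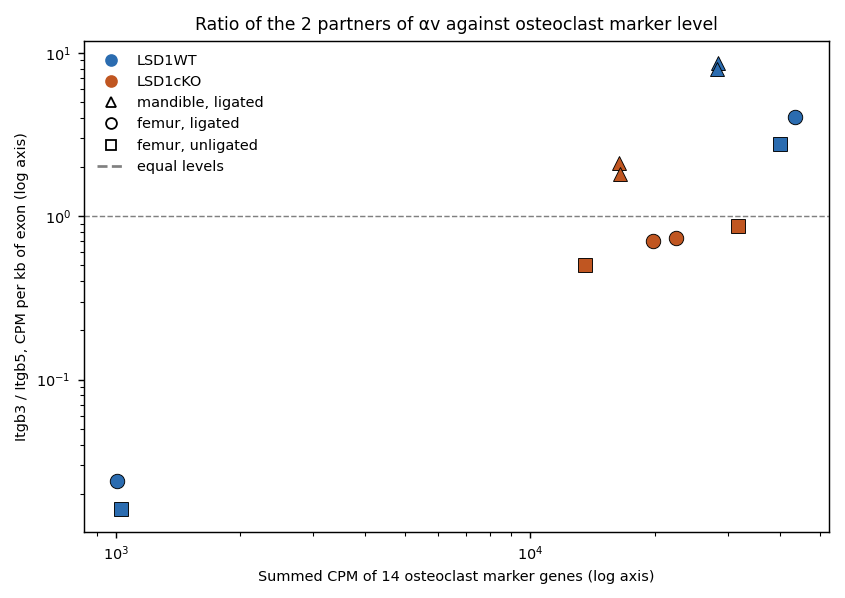
Ratio of Itgb3 to Itgb5 (CPM per kb of exon, log axis) in each library against the summed CPM of 14 osteoclast marker genes (log axis), which do not include an integrin; colour is genotype, shape is culture and the dashed line marks equal levels. The femur LSD1WT replicate 2 libraries are at the lower left with ratios of 0.0240 and 0.0161, and femur LSD1cKO lies at 0.499 to 0.868. All 4 mandible libraries and femur LSD1WT replicate 1 of both femur cultures lie above the line.

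Of the β2 family, Itgb2 (ENSMUSG00000000290, chromosome 10) was steady. Its level was 638 and 645 CPM in mandible LSD1WT and 595 and 687 CPM in mandible LSD1cKO, and between 489 and 990 CPM in the 8 femur libraries. The genotypes overlapped in each culture.

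Itgam (ENSMUSG00000030786, chromosome 7), the αM chain known as CD11b, had 47.5 and 51.0 CPM for mandible LSD1WT, against 105 and 146 CPM for LSD1cKO. In ligated femur LSD1WT had 112 and 242 CPM and LSD1cKO 254 and 196 CPM. The unligated femur had 96.0 and 252 CPM in LSD1WT and 274 and 160 CPM in LSD1cKO. LSD1cKO exceeded the first LSD1WT replicate in all cultures, and femur LSD1WT replicate 2 reached LSD1cKO levels.

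Itgal (ENSMUSG00000030830, chromosome 7), the αL chain of LFA-1, showed the widest mandible gap of the 10 genes, with 11.8 and 13.1 CPM in LSD1WT and 73.9 and 105 CPM in LSD1cKO. Ligated femur had 29.3 and 132 CPM in LSD1WT and 94.2 and 78.9 CPM in LSD1cKO. Unligated femur had 33.6 and 276 CPM in LSD1WT and 137 and 61.6 CPM in LSD1cKO. The 6 LSD1cKO libraries, at 61.6 to 137 CPM, lay above 4 of the LSD1WT libraries, and 1 of them, at 137 CPM, also above ligated femur LSD1WT replicate 2. Itgax (ENSMUSG00000030789, chromosome 7), the αX chain CD11c, had 12.6 and 12.8 CPM for mandible LSD1WT, against 13.6 and 15.5 CPM for LSD1cKO. It ranged from 7.62 to 19.6 CPM in femur LSD1cKO, and was at 22.7 and 17.3 CPM in replicate 1 and 1.95 and 1.24 CPM in replicate 2 of femur LSD1WT.

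As shares of the 3 α chains per kb, Itgal made up 13.0% and 13.5% in mandible LSD1WT and 32.1% and 33.1% in mandible LSD1cKO. The Itgal share in femur was 14.1% and 18.4% in LSD1WT replicate 1, 29.3% and 45.4% in replicate 2 and 20.9% to 26.3% in LSD1cKO. Itgax took 13.0% to 18.9% in the 4 LSD1WT libraries other than femur replicate 2, 0.591% and 0.279% in that pair, and 3.71% to 8.06% in LSD1cKO. Itgam held the largest share in every library, at 54.3% to 74.4%. The Itgax share in the 6 LSD1cKO libraries therefore lay in the gap between the LSD1WT libraries that expressed osteoclast genes and those that nearly lacked them.

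**Figure D3:**
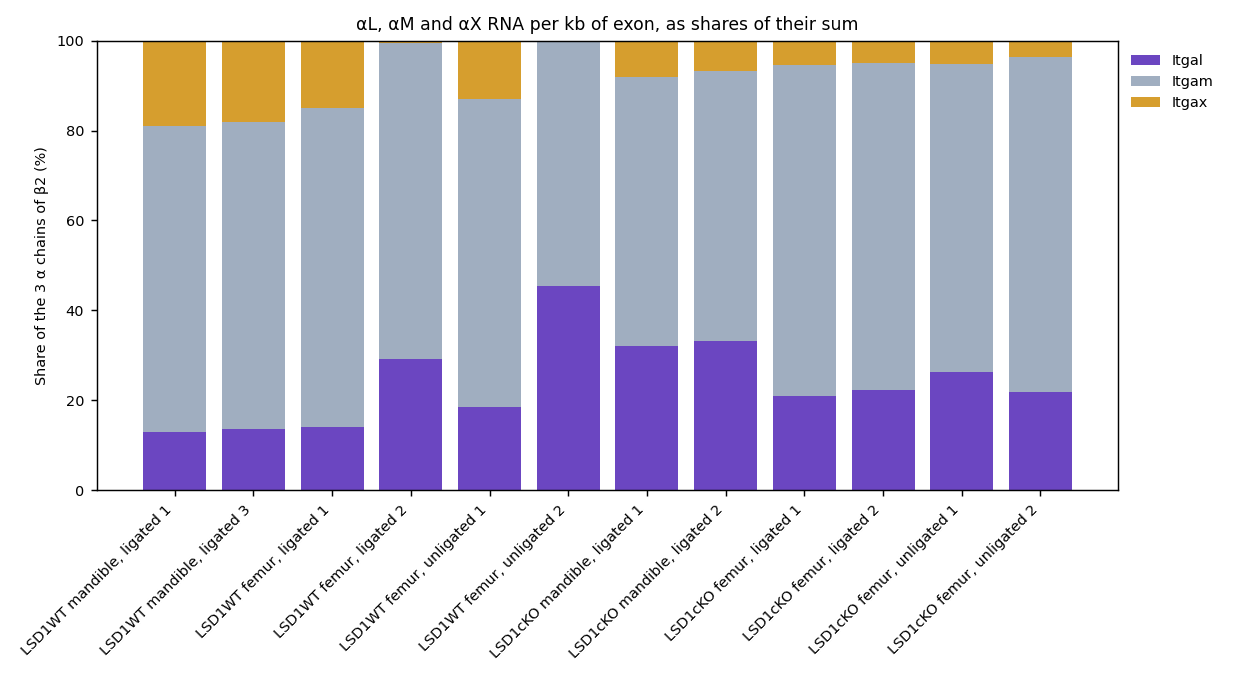
Stacked bars of the share (%) of Itgal, Itgam and Itgax in the sum of the 3 α chains of β2, from CPM per kb of exon, for each library. The Itgal share is 13.0% and 13.5% in mandible LSD1WT against 32.1% and 33.1% in mandible LSD1cKO, and the Itgax share nearly vanishes in femur LSD1WT replicate 2 (0.591% and 0.279%).

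Itgb1 (ENSMUSG00000025809, chromosome 8), the most widely shared β chain, had 604 and 622 CPM for mandible LSD1WT, against 535 and 658 CPM for LSD1cKO. In ligated femur LSD1cKO, at 598 and 521 CPM, lay below LSD1WT, at 722 and 619 CPM, as 19.4% of all genes did. Unligated femur gave 585 and 911 CPM for LSD1WT, against 737 and 435 CPM for LSD1cKO, with overlap. Itga4 (ENSMUSG00000027009, chromosome 2) had 260 CPM in both mandible LSD1WT libraries, against 290 and 386 CPM for LSD1cKO. Ligated femur gave 338 and 464 CPM for LSD1WT, against 517 and 355 CPM for LSD1cKO. For unligated femur the values were 241 and 367 CPM, against 541 and 239 CPM. Only the mandible pairs were separate.

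Itgb7 (ENSMUSG00000001281, chromosome 15), the second partner of α4, was the only gene of the 10 whose 6 LSD1cKO libraries all lay above the 6 LSD1WT libraries. Among all tested genes 1.98% were separated in that direction. The mandible had 155 and 156 CPM in LSD1WT and 188 and 221 CPM in LSD1cKO. Ligated femur had 176 and 17.1 CPM in LSD1WT and 222 and 184 CPM in LSD1cKO, and unligated femur had 131 and 20.7 CPM in LSD1WT and 294 and 183 CPM in LSD1cKO. Per kb, Itgb7 made up 33.1% to 38.3% of Itgb1 and Itgb7 together in LSD1cKO, 24.8% to 27.4% in 4 LSD1WT libraries and 3.25% and 3.92% in femur LSD1WT replicate 2. Unlike those of Itgb3, its LSD1cKO values did not lie between the kinds of LSD1WT library.

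Over the 3 cultures, with 6 libraries per genotype, 0 of the 10 integrin genes passed an adjusted p of 0.05 (edgeR's quasi-likelihood test, adjusted over all genes by Benjamini-Hochberg), against 3.53% of all tested genes. DESeq2 called 0 of them too, against 8.09% of all genes, and 0 had an unadjusted p under 0.05, beside 16.1% of all genes. Itgb7 differed by a log2 fold change of 1.04 ± 0.55 (SE), from 109 ± 71.3 CPM (SD) in LSD1WT to 215 ± 42.4 CPM in LSD1cKO (adjusted p = 0.397, edgeR). Itgam stood at 0.67 ± 0.31 (adjusted p = 0.322, edgeR). For Itgb3 the log2 fold change was -0.73 ± 0.77, for Itgb5 -0.50 ± 0.61 and for Itgal 0.69 ± 0.73. Those of Itgav (-0.20 ± 0.47), Itgb1 (-0.22 ± 0.17), Itgb2 (0.13 ± 0.17), Itgax (0.35 ± 0.61) and Itga4 (0.29 ± 0.21) were smaller. The median over the 10 genes was 0.21, beside -0.06 over all genes tested. The SE of these estimates ran from 0.17 for Itgb1 and Itgb2 to 0.77 for Itgb3, and no intervals were computed. A difference that misses the threshold is not shown to be absent. The LSD1WT libraries came from 5 mice and the LSD1cKO libraries from 4. The model held no term for the mouse, so libraries of the same mouse were treated as independent, here and in the gene lists below.

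Without the femur LSD1WT replicate 2 libraries, which leaves 4 LSD1WT and 6 LSD1cKO libraries, 5 of the 10 genes passed, beside 24.2% of all genes tested (edgeR). Itgb3 was lower in LSD1cKO by a log2 fold change of -1.28 ± 0.28 (2.43-fold, adjusted p = 0.00878, edgeR). Higher were Itgal at 2.12 ± 0.30 (adjusted p = 0.000641), Itgam at 1.24 ± 0.17 (adjusted p = 0.000552), Itgb5 at 0.87 ± 0.19 (adjusted p = 0.00899) and Itgb7 at 0.51 ± 0.15 (adjusted p = 0.0345), all by edgeR. Itgb5 thus had opposite signs with and without that pair. In these 10 libraries Itgb3, Itgal and Itgb7 did not overlap between the genotypes, which held for 14.4% of all genes. The remaining 5 genes did not pass: Itgav was at -0.60 ± 0.23, Itga4 at 0.50 ± 0.22, Itgax at -0.15 ± 0.24, Itgb1 at -0.08 ± 0.15 and Itgb2 at 0.04 ± 0.16. With the near-identical mandible LSD1WT pair also summed into 1 library, an alternative chosen after seeing the data, 4 of the 10 passed beside 17.9% of all genes, and Itgb7 did not (adjusted p = 0.0755, edgeR). These fits leave out libraries, of LSD1WT only, that were chosen for their osteoclast and macrophage transcripts. Those libraries held the lowest Itgb3 and Itgb7 and the highest Itgb5 of the 12, so leaving them out by itself shifts the LSD1WT levels. The adjusted p values of these fits do not account for that choice. The share of genes called was several times that of all 12 libraries, so the members' count is to be read against that share. The summed osteoclast markers moved with these results, at 13579 to 31755 CPM in LSD1cKO and 28256 to 43678 CPM in the 4 LSD1WT libraries, and their part in them was not tested.

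**Figure D4:**
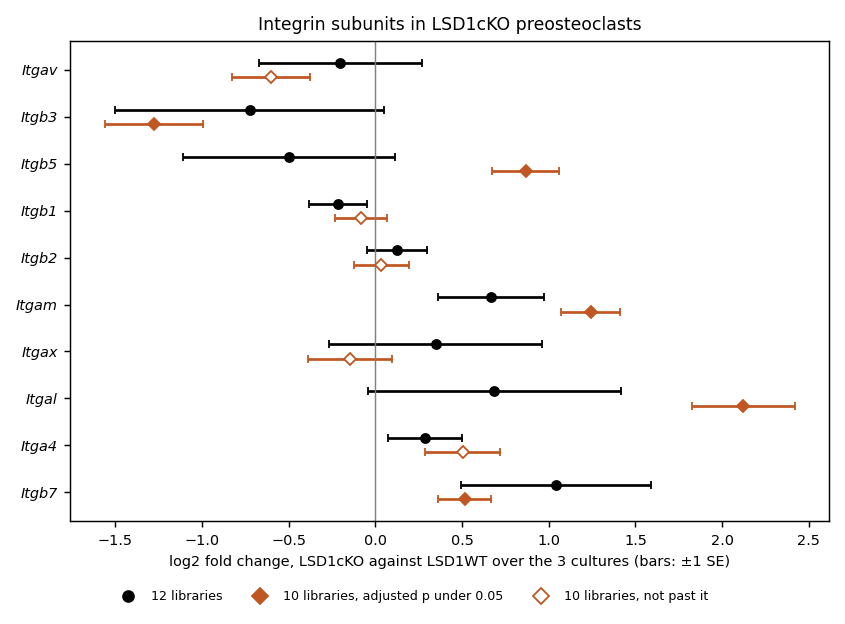
Log2 fold change of LSD1cKO against LSD1WT over the 3 cultures for the 10 integrin genes, with bars of 1 standard error; black circles use all 12 libraries, orange diamonds leave out femur LSD1WT replicate 2 of both femur cultures and are filled where the adjusted p is under 0.05. No gene passes with 12 libraries, and Itgb3, Itgb5, Itgam, Itgal and Itgb7 pass with 10, with Itgb5 moving from -0.50 to 0.87.

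In mandible preosteoclasts of ligated mice 0 of the 10 genes and 0% of all genes passed in the fit of 12 libraries (edgeR). Before adjustment 2 of the 10 had p under 0.05, beside 4.82% of all genes, and DESeq2 called 146 genes and 0 of the 10. The 2 were Itgal, with a log2 fold change of 2.84 ± 0.98 (SE; 7.17-fold, adjusted p = 0.812, edgeR), and Itgam, with 1.35 ± 0.52 (2.55-fold, adjusted p = 0.911, edgeR). Itgb3 was at -1.07 ± 1.48, Itgb5 at 1.03 ± 0.93, Itgav at -0.50 ± 0.88, Itgb7 at 0.40 ± 0.99, Itga4 at 0.38 ± 0.41, Itgax at 0.20 ± 1.18, Itgb1 at -0.04 ± 0.32 and Itgb2 at -0.0017 ± 0.33. Libraries of the genotypes did not overlap for 8 of the 10 genes, 6 higher and 2 lower in LSD1cKO, but this held for 68.9% of all genes (34.1% higher and 34.8% lower). Without the femur LSD1WT replicate 2 libraries Itgal (2.88, adjusted p = 0.00574) and Itgam (1.39, adjusted p = 0.0321) passed, beside 5.85% of all genes (edgeR). When the 4 mandible libraries were fitted alone, 7 of the 10 passed beside 37.7% of all genes. Its spread rests on 2 pairs, of which the LSD1WT pair was nearly identical. Cell type markers differed in level beside these values: all 14 osteoclast genes were lower in LSD1cKO without overlap, summing to 16386 and 16459 CPM against 28388 and 28256 CPM. Of 15 macrophage and monocyte genes 12 had a higher mean in LSD1cKO, 7 of them without overlap, but the sums overlapped, at 1949 and 2418 CPM against 2206 and 2229 CPM. Adgre1 was at 117 and 187 CPM against 47.6 and 49.8 CPM. The part of these markers in the Itgal and Itgam values was not tested.

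The femur gave no call among the 10 genes. In ligated femur 0 of the 10 passed, beside 0.00648% of all genes (1 gene, Kdm1a), and in unligated femur 0 of the 10 beside 0% (edgeR). Unadjusted p values under 0.05 were found for 0 of the 10 in either culture, beside 6.88% and 4.95% of all genes. DESeq2 called 217 and 122 genes, and 0 of the 10 in both. Itgb3 was at -0.82 ± 1.47 (SE) with ligature and -0.29 ± 1.47 without. Itgb5 stood at -1.14 ± 0.93 and -1.27 ± 0.93, Itgal at 0.10 ± 0.92 and -0.64 ± 0.92, and Itgb7 at 1.07 ± 1.00 and 1.65 ± 1.01. Once the LSD1WT replicate 2 libraries were left out, Itgb3 was at -1.69 and -1.22, Itgb5 at 0.78 and 0.67, Itgal at 1.65 and 1.57, and Itgb7 at 0.29 and 0.88, with 0 of the 10 past the threshold in either culture beside 9.35% and 2.47% of all genes. Without replicate 1 of the LSD1WT culture instead, Itgb3 was at 3.08 and 3.54, Itgb5 at -1.84 and -1.999, Itgal at -0.52 and -1.40, and Itgb7 at 3.65 and 3.59, with 0 of the 10 past the threshold. Of these genes, the signs of Itgb3, Itgb5 and Itgal therefore depended on which LSD1WT femur library was kept. That of Itgb7 did not, although its size did. The other members were not followed in this way. LSD1cKO means of Itgam, Itgax and Itgav also lay between the LSD1WT replicates, with ligature and without. Mean Itgam was 225 and 217 CPM, against 112 and 96.0 in replicate 1 and 242 and 252 in replicate 2. Mean Itgax was 15.2 and 13.6 CPM, against 22.7 and 17.3 in replicate 1 and 1.95 and 1.24 in replicate 2. Those of Itgb1, Itgb2 and Itga4 did not do so in both cultures.

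Whether skeletal site mattered was asked in ligated mice, with the mean of the genotypes. Of the 10 genes 0 passed, beside 6.22% of all genes (edgeR), and 2 had an unadjusted p under 0.05, beside 29.8%. Itgam was lower in mandible by a log2 fold change of -1.34 ± 0.37 (SE), at 87.5 ± 47.2 CPM (SD) against 201 ± 64.2 CPM in femur (adjusted p = 0.0613, edgeR). Itgb5 was at -1.71 ± 0.67 (adjusted p = 0.130, edgeR), Itgal at -1.32 ± 0.66, Itgav at 1.24 ± 0.63 and Itgb3 at 0.92 ± 1.04. Itga4 was at -0.49 ± 0.29, Itgb7 at 0.35 ± 0.70, and Itgb1, Itgb2 and Itgax at -0.02, -0.02 and -0.01, with signs that changed under upper-quartile scaling. Without ligated femur LSD1WT replicate 2 or replicate 1, respectively, Itgb3 was at 0.44 or 2.84, Itgav at 0.80 or 2.51, Itgal at -0.59 or -1.665 and Itgb5 at -0.79 or -2.09. DESeq2 called Itgam and Itgb5, which is 2 of the 10 beside 20.7% of all genes. With the mouse as a block, 3 of the 10 passed beside 28% of all genes (edgeR): Itgav at 0.94 ± 0.20 (adjusted p = 0.0101), Itgb5 at -0.75 ± 0.17 (adjusted p = 0.0135) and Itgam at -0.98 ± 0.18 (adjusted p = 0.00593). In that fit the site effect comes from the 3 mice with both sites, so that femur LSD1WT replicate 2 and mandible LSD1WT replicate 3 do not enter it. LSD1WT enters through the mouse of replicate 1 alone, so this effect is not an equal mean of the genotypes. With a term for each mouse, few residual degrees of freedom remained. Leaving out any single mandible library or either femur LSD1cKO library of the ligated mice brought the count over all genes from 959 to 0, and leaving out femur LSD1WT replicate 1 brought it to 4883 and that of the 10 to 3. Without unligated LSD1WT replicate 1 or 2 it was 2006 or 2027, with 1 of the 10, and without ligated LSD1WT replicate 2 it was 630, with 0 of the 10. The macrophage list moved with site, with 7 of 15 genes called lower in mandible beside 4.41% of all genes, and its part in the Itgam value was not tested.

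Neither ligature nor an interaction gave a call among the 10 genes. Between ligated and unligated femur 0 of the 10 and 0% of all genes passed (edgeR), with 0 of the 10 and 2.94% of all genes at an unadjusted p under 0.05 and 0 of the 10 and 6 genes by DESeq2, and the smallest p among the 10 was 0.365. Whether the genotype effect differed between mandible and ligated femur was tested as an interaction, which passed for 0 of the 10 and 0% of all genes (edgeR), with 0 of the 10 and 0.966% of all genes unadjusted and 0 of the 10 and 1 gene by DESeq2. Its largest value was for Itgal, at 2.74 ± 1.32 (SE), with a genotype effect of 2.84 in mandible and 0.10 in ligated femur (adjusted p = 1.00, edgeR). The same difference for Itgb5 was 2.17 ± 1.32. Without ligated femur LSD1WT replicate 2 they were 1.28 and 0.33. Between ligated and unligated femur the genotype effects differed for 0 of the 10 and 0% of all genes (edgeR), with 0 of the 10 and 0.344% of all genes unadjusted and 0 genes by DESeq2.

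Among 17 other integrin subunits, 14 were tested, and over the 3 cultures 0 differed between the genotypes. By site 1 was higher and 1 lower in mandible, beside 1.8% and 4.41% of all genes (edgeR). Itga2b, the αIIb chain of platelets and their precursors, was at 1.10 to 1.55 CPM in the 4 mandible libraries and at 3.24 to 5.23 CPM in ligated femur, and did not overlap, which held for 12.1% of all genes in that direction (log2 fold change -1.75 ± 0.33, adjusted p = 0.0304, edgeR). Itga11, a collagen receptor chain of mesenchymal cells, was called higher on few reads, with 9 to 46 in mandible against 1 to 4 in ligated femur (adjusted p = 0.0427, edgeR). Leaving out single libraries of the ligated mice ended both calls, with adjusted p up to 0.1695 for Itga2b and 0.1814 for Itga11 (edgeR). Megakaryocyte markers also differed by site, with 2 of 5 tested called lower in mandible, while 0 of 5 stromal markers were called, and their part in these values was not tested.

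In the ligand list 3 of 15 tested genes, of 22 listed, were higher in LSD1cKO and 0 lower, beside 3% and 0.532% of all genes (edgeR). The list was chosen with earlier results of these data known, so its count is a description. C3, whose cleavage product iC3b is bound by αMβ2 and αXβ2, was at 61.3 to 379 CPM in LSD1cKO and 7.74 to 68.9 CPM in LSD1WT (log2 fold change 2.49 ± 0.49, adjusted p = 0.0205, edgeR). Icam1, a ligand of αLβ2 and αMβ2, was at 130 to 263 CPM in LSD1cKO and 49.8 to 153 CPM in LSD1WT (1.09 ± 0.24, adjusted p = 0.0336, edgeR). F11r, which encodes JAM-A, another αLβ2 ligand, was at 27.5 to 60.8 CPM in LSD1cKO and 2.87 to 20.3 CPM in LSD1WT, with no overlap (1.81 ± 0.43, adjusted p = 0.0486, edgeR). Without the femur LSD1WT replicate 2 libraries all 3 remained higher, at 2.04, 0.89 and 1.39 (adjusted p = 0.000108, 0.00209 and 0.000125, edgeR). The calls were near the threshold in the full set. C3 lost its call (adjusted p up to 0.0512, edgeR) without ligated LSD1cKO femur replicate 1 or mandible replicate 2. Icam1 lost it in 7 of the 12 cases of leaving out a library (adjusted p up to 0.0825, edgeR) and F11r in 9 (adjusted p up to 0.114, edgeR).

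Of 20 tested activators and adhesion adaptors 0 passed over the 3 cultures (edgeR), and 7 had an unadjusted p under 0.05, beside 3.53% and 16.1% of all genes. Parvg, the leukocyte parvin that links ILK to actin, had the smallest p. It was at 64.1 to 90.3 CPM in LSD1cKO, at 26.2 to 33.1 CPM in 4 LSD1WT libraries and at 53.9 and 79.8 CPM in femur LSD1WT replicate 2 (0.84 ± 0.28, adjusted p = 0.160, edgeR). Leaving out that pair gave 1.42 ± 0.09 (adjusted p = 7.181e-06, edgeR), and leaving out its unligated library alone gave 1.20 (adjusted p = 0.0101, edgeR). Rap1a, the GTPase that drives talin to integrins, was at 0.34 ± 0.13 (adjusted p = 0.213, edgeR). Fermt3, the kindlin of blood cells, was at -0.30 ± 0.12 (adjusted p = 0.221, edgeR). Of 24 signalling genes 0 passed between genotypes and 2 were lower in mandible than in ligated femur, beside 3.53% and 4.41% of all genes. They were Vav2, a Rac exchange factor (-0.91, adjusted p = 0.0336, edgeR), and Tyrobp, the ITAM adaptor DAP12 that works with αvβ3 (-0.93, adjusted p = 0.0469, edgeR). Both calls were lost when single libraries of the ligated mice were left out, with adjusted p up to 0.176 for Vav2 and 0.190 for Tyrobp (edgeR).

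By Pearson's correlation of log2 CPM over the 12 libraries, the genes most like Itgb3 were Magi1 (0.994), Msi2 (0.993), Rilpl1 (0.993), Nfatc1 (0.992) and Pheta1 (0.992). Nfatc1, the transcription factor of osteoclast differentiation, was at 102 and 94.2 CPM in femur LSD1WT replicate 2 and at 349 to 998 CPM elsewhere. Closest to Itgam were Sting1 (0.989), Kif3c (0.973), Tjp3 (0.972), Jak2 (0.972) and Esr1 (0.971). Among the 10 genes themselves Itgax went with Itgb7 (0.93), Itgam with Itgal (0.92), and Itgb3 with Itgax (0.91) and Itgav (0.90). These values share the same libraries and, for Itgb3, Itgax and Itgb7, the extreme femur LSD1WT replicate 2 pair.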

How the data were processed

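Preosteoclasts of 12 samples were grouped by title into genotype and culture. The deposited values are read counts per Ensembl gene, which the authors left unnormalized. The submitters' processing notes name HISAT2 2.1.0, featureCounts and the build GRCm39; strand handling is not given in the sources used here. From these counts, genes were kept with filterByExpr, scaled with TMM and tested with edgeR 4.0.16 (quasi-likelihood, R 4.3.3), 1 coefficient per condition, or culture plus genotype for the effect over cultures, with Benjamini-Hochberg adjustment over all 15425 genes at 0.05. Exon lengths came from GENCODE vM21, joined by Ensembl identifier, and promoters from RefSeq (GRCm38.p6). Each length merges the annotated exons of all transcripts of a gene, so comparisons per kb between genes depend on it. The SE given with a log2 fold change was derived as its absolute value divided by the square root of edgeR's F statistic. It is not a standard error reported by the model. The models were also run on simulated counts of independent libraries with the same spread in every condition. That run lacked the unequal replicate pairs and the shared mice of these data, so it does not bear on the results here. Genes named are the 10 integrin genes, list genes past the threshold (otherwise the 3 of smallest p), and those most like Itgb3 and Itgam. Members and lists were chosen with earlier results of these data known. Alternatives were DESeq2 1.42.0, RLE and upper-quartile scaling, other filters, left-out libraries, the conflicting library as femur, and replicate blocks. The replicate number pairs samples only where the labels give a mandible and a femur library from the same mouse. Between conditions that share the numbers 1 and 2, deviations correlated at -0.197 to 0.278 (0.026 for the LSD1cKO mice with both sites), and at 0.78 between ligated and unligated femur LSD1WT, which are different mice. Replicates of a condition are different mice by the labels.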

Additional observations from a re-analysis of the deposited data

How the results depend on the processing

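Both the counts of calls and the log2 fold changes depended on the settings, some of the latter in sign. Without both femur LSD1WT replicate 2 libraries, genes past the threshold numbered 3867 over the 3 cultures (544 with all libraries), 936 in mandible (0), 1497 in ligated femur (1), 396 in unligated femur (0) and 3474 between sites (959), and members 5, 2, 0, 0 and 1. Of the log2 fold changes followed, Itgb5 then turned over the cultures (0.87), in ligated femur (0.78) and in unligated femur (0.67). Others that turned were Itgax over the cultures (-0.15), Itgal in unligated femur (1.57), Itgb2 in mandible (0.0326) and Itgb7 by site (-0.0765). Within femur, here and below, only Itgb3, Itgb5, Itgal and Itgb7 were followed, so the list is not complete. With all libraries Itgax was at 0.30 in ligated and 0.55 in unligated femur. Its LSD1cKO means of 15.2 and 13.6 CPM lay below LSD1WT replicate 1, at 22.7 and 17.3 CPM. With the mandible LSD1WT pair also summed, chosen after seeing the data, 2849 genes and 4 members passed, with Itgb5 at 0.83 and Itgax at -0.21. DESeq2 called 1248 genes over the cultures, 146 in mandible, 217 in ligated femur, 122 in unligated femur, 3200 genes and 2 members by site, 6 by ligature and 1 for the difference of genotype effects between sites. In ligated femur RLE scaling gave 9 genes and a mean of 10 counts 10 genes, the latter with Itgb2 at 0.0052 in mandible. No filter gave 45 genes in mandible, 93 in ligated femur, 24 in unligated femur, 1 by ligature, and 2095 genes and 2 members by site, with Itgb1 at 0.0319 and Itgb2 at 0.0678 in mandible. The compared conditions alone gave 5434 genes and 7 members in mandible (Itgb2 0.0009), 0 genes in ligated femur, and 2074 genes and 1 member by site (Itgax 0.0032). With the conflicting library as femur there were 348 genes over the cultures, 16 in ligated femur and 0 by site, with Itgb1 at 0.0152 and Itgb2 at 0.0379 in mandible. Upper-quartile scaling turned Itgb1 (0.0109), Itgb2 (0.0046) and Itgax (0.0132) by site. The cause of these changes was not tested.

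The replicate number as a block gave 0 genes in ligated femur and 0 by site, and turned Itgav over the cultures (0.20) and in mandible (0.21), Itgb3 over the cultures (0.40), in mandible (0.51), in ligated femur (0.36) and in unligated femur (0.40), and Itgb1 (0.0105) and Itgb2 (0.20) in mandible. It marks no shared mouse between genotypes. The mouse block gave 4321 genes and 3 members by site, with Itgb7 at -0.0535.

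Leaving out single libraries gave 298 to 653 genes over the cultures, 0 to 24 in mandible, 0 to 44 in ligated femur, 0 to 16 in unligated femur, 0 to 42 by ligature, and 0 to 4883 genes and 0 to 3 members by site; an arm left with 1 library is assumed to vary like the others. Over the cultures the count was 298 to 327 without either ligated femur LSD1cKO library, either mandible LSD1WT library or mandible LSD1cKO replicate 2. There Itgav ran from -0.41 to 0.39 and Itgb5 from -0.70 to 0.18. In mandible Itgb1 ran from -0.18 to 0.12 and Itgb2 from -0.0905 to 0.11. In ligated femur the ranges were -1.775 to 3.08 for Itgb3, -1.84 to 0.70 for Itgb5 and -0.52 to 1.56 for Itgal, and in unligated femur -1.46 to 3.54, -1.999 to 0.67 and -1.40 to 1.57. By site they were -0.0910 to 0.0551 for Itgb1, -0.18 to 0.18 for Itgb2, -0.45 to 1.33 for Itgax and -0.0851 to 1.61 for Itgb7. Having 2 libraries per condition limits every within-culture value, and strand was not known, so reads of antisense genes could be shared.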
